A study of Mus musculus with 3 samples.

Results

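The actin cytoskeleton genes described here are a list of 41 genes whose proteins build, cross-link, contract or anchor actin filaments. Every non-control probe that carries the name of such a gene in the array files was taken, which gave 86 of the 41174 probes and 41 of the 19782 named genes on the array. Signals came from mPTECs, as the labels call cells isolated from the kidneys of male mice aged 1 month. Those of day 0 were freshly isolated, and those of day 1 and day 3 had been kept on culture dishes for 1 and 3 days in a medium with insulin, transferrin, selenium, hydrocortisone and 1% serum. The strain and the number of animals behind a sample are not given in the sources used here. Each day had 1 sample on 1 array, so no difference between days has an error between samples, no test was possible, and every fold describes these 3 arrays.

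Actin filaments grow from monomers that profilin delivers and thymosins hold back. The Arp2/3 complex branches filaments, cofilin severs them, and filamins, alpha-actinins and fascin join them into networks and bundles. Stress fibres form where tropomyosins, calponins and non-muscle myosin load onto such bundles and pull on focal adhesions, the sites that talin, vinculin and zyxin build on integrins. In the proximal tubule much of the actin instead stands in the microvilli of the brush border, where villin bundles it and ezrin ties it to the membrane.

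A signal below is the processed intensity of a probe divided by the 75th percentile of its array, so that 1 unit is that percentile (1184, 1509 and 1515 intensity units on day 0, day 1 and day 3). A gene is represented by its probe with the highest mean, and all 41 genes were well above background on all 3 arrays by that probe. The scatter of spots of the same probe was small, with a median SD of 0.15 in log2 signal. Taken alone, it leaves a ratio between 2 arrays uncertain by 0.21, or 1.15-fold. Between probes of the same gene, the median SD of the log2 ratio was 0.41 for day 1 and 0.49 for day 3 against day 0, over the 25 actin genes with several probes. The labelled cell type was checked against 10 proximal tubule markers, whose summed signal was 1079 on day 0, 188 on day 1 and 17.3 on day 3. All 10 were at least 4-fold lower on day 3 than on day 0. In bulk RNA, fewer cells of a type and less RNA per cell cannot be told apart.

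Most actin genes were higher in culture. On day 1, 31 of the 41 had a higher signal than on day 0, with a median log2 ratio of 1.12 against -0.11 over all named genes tested. Of them, 9 were at least 4-fold higher, a size of difference found upward in 3.39% of 18825 named genes, and 2 were at least 4-fold lower, found in 5.13%. On day 3, 35 were higher than on day 0, 15 at least 4-fold, beside 5.33% of 19021 named genes. 2 genes, Myl9 and Vil1, were at least 4-fold lower on day 3, beside 7.94% of named genes, and the median log2 ratio was 1.48 against -0.11. From a 2-fold difference on, 23 genes were higher and 5 lower on day 1, beside 13.5% and 15.3% of named genes.

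**Figure D1:**
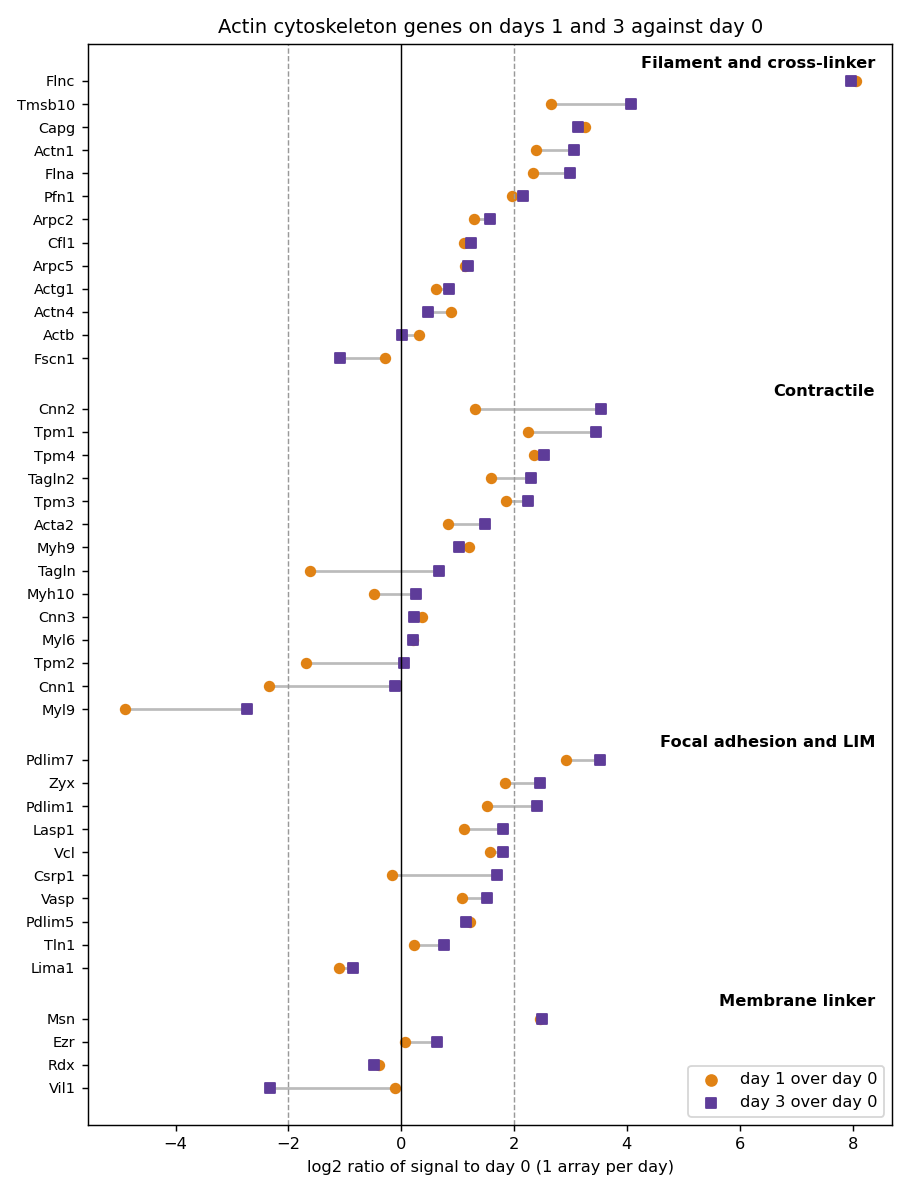
Log2 ratio of the signal on day 1 (circles) and day 3 (squares) to that on day 0 for each of the 41 genes, by role, with dashed lines at a 4-fold difference. Most genes lie to the right of 0 on both days, Flnc stands far right at 7.96 on day 3, and Myl9 far left at -4.90 on day 1.

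The roles differed. The 13 genes of filaments and cross-linkers had a median log2 ratio of 1.30 on day 1 and 1.58 on day 3 against day 0. The 10 focal adhesion genes had medians of 1.17 and 1.75, and the 14 contractile genes 0.59 and 0.84. The 4 membrane linkers stood at -0.02 and 0.08, medians so near 0 that their sign depends on the processing. On day 1 the ratios ran from -0.29 to 8.06 in filament genes and from -1.11 to 2.91 in focal adhesion genes. They ran from -4.90 to 2.36 in contractile genes and from -0.40 to 2.46 in membrane linkers. On day 3, 6, 3, 5 and 1 genes of these groups were at least 4-fold higher, and 0, 0, 1 and 1 at least 4-fold lower. With Acta2 taken by another of its probes, for a reason given with that gene, the contractile medians became 0.28 and 0.46, and they were 0.23 and 0.50 with the probes of each gene averaged. Averaged probes also gave focal adhesion genes a day 1 median of 0.67.

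**Figure D2:**
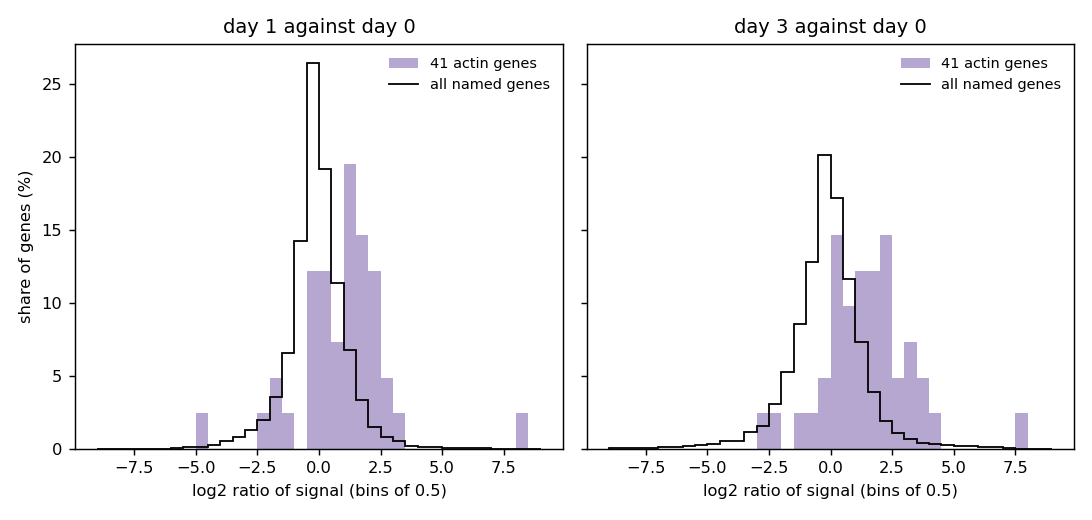
Share of the 41 actin genes (filled) and of all named genes (line) by log2 ratio in bins of 0.5, for day 1 and day 3 against day 0. The actin genes lie mostly right of the named genes, whose medians are -0.11 and -0.11.

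Among the filament genes, the cytoplasmic actins themselves differed by about 2-fold or less. Actg1, which encodes gamma-actin, had a signal of 62.3 on day 0, 95.3 on day 1 and 112 on day 3, and its other probe gave 17.3, 28.4 and 34.9. Both probes were higher in culture, by 1.80-fold and 2.01-fold on day 3 against day 0. Actb, which encodes beta-actin, had its brightest probe at 6.93 on day 0, 8.58 on day 1 and 7.04 on day 3. The array files place that probe on chromosome X, whereas RefSeq has Actb on chromosome 5, where the other probe lies. That other probe was printed in 10 spots, with a signal of 1.08 ± 0.132 on day 0, 0.877 ± 0.109 on day 1 and 0.797 ± 0.0805 on day 3 (SD over spots, n = 10). Its log2 ratio was -0.30 ± 0.08 for day 1 and -0.44 ± 0.07 for day 3 (SE from spots of 1 array a day), against 0.31 and 0.02 by the brightest probe. The direction for Actb thus depended on the probe, and on day 3 also on the scaling, while either probe stayed within 2-fold.

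The RNAs of Tmsb10, Pfn1, Cfl1, Arpc2, Arpc5 and Capg were higher on day 1 and day 3 than on day 0. Tmsb10, a monomer-binding thymosin, had a signal of 1.48 on day 0, 9.27 on day 1 and 24.9 on day 3. It was 6.26-fold higher on day 1 and 16.8-fold higher on day 3 than on day 0. Of named genes, 98.8% had a lower ratio on day 3, and the second probe of Tmsb10 was 16.5-fold higher. Pfn1, the profilin gene, had 1.64 on day 0, 6.39 on day 1 and 7.30 on day 3, or 3.90-fold and 4.45-fold higher than day 0, so it passed 4-fold on day 3. It did not with scaling to reference genes (1.99 in log2 ratio), and it passed on day 1 as well with median centring (2.17). Cfl1, which encodes the severing protein cofilin, was 2.16-fold and 2.35-fold higher on day 1 and day 3 than on day 0. Of the Arp2/3 subunits, Arpc2 was 2.46-fold and 2.98-fold higher and Arpc5 2.20-fold and 2.27-fold higher. Capg, which caps filament ends, had 1.43 on day 0, 13.7 on day 1 and 12.6 on day 3. Its 9.53-fold difference was in place on day 1, and the signal on day 3 was 8.77-fold that of day 0. Leukocytes also express Capg and Tmsb10 strongly. All 9 leukocyte markers were well above background and none was at 0. Their summed signal was 3.59 on day 0, 4.66 on day 1 and 3.10 on day 3. Within it Cd68 alone had 0.162, 1.98 and 0.822, while the median log2 ratio of the 9 markers on day 1 against day 0 was -0.35. The part of leukocytes was not tested.

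Of the cross-linkers, the alpha-actinin and filamin families each held genes of unlike size of change. Actn1 had a signal of 0.412 on day 0, 2.15 on day 1 and 3.45 on day 3, 5.21-fold and 8.37-fold higher than on day 0. Actn4, the alpha-actinin that podocytes need, had 19.1, 35.1 and 26.4 on those days and stayed within 2-fold. Flna, the widely expressed filamin, had 9.37 on day 0, 47.0 on day 1 and 74.3 on day 3 by its brightest probe, 5.02-fold and 7.93-fold higher than day 0. A further Flna probe gave log2 ratios of 2.62 and 2.88, but 2 others gave -1.07 and -0.10 on day 3, and the mean of all 4 was 1.23 on day 1 and 1.18 on day 3, under 4-fold. Fscn1, which encodes the bundling protein fascin, was lower, with 0.208 on day 0, 0.171 on day 1 and 0.0983 on day 3.

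Flnc, the filamin of striated muscle, had the largest difference of the 41 genes by its brightest probe, whose signal was 0.0299 on day 0, 7.98 on day 1 and 7.47 on day 3. That is 266-fold and 249-fold higher than on day 0, and 99.97% of named genes had a lower ratio on day 1. The day 0 signal was low, and with normexp the log2 ratios were 6.42 and 6.49 in place of 8.06 and 7.96. The other probes gave smaller ratios. The next brightest lies 465 bases before the brightest, at chr6:29411109-29411168 on the plus strand (mm9), and its signal was 0.0954 on day 0, 0.714 on day 1 and 0.992 on day 3, or 7.49-fold and 10.4-fold higher. It is shown as the second measure of the gene with the largest difference.
Flnc, second brightest probe: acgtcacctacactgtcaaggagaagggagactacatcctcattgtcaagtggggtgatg
The remaining 2 probes gave log2 ratios of 0.27 and 1.47 on day 1 and 1.19 and 1.16 on day 3. The first of them had signals of 0.234, 0.282 and 0.533 on day 0, day 1 and day 3. On day 0 it and the second brightest probe thus exceeded the brightest, whose rank rests on the culture days. All 4 probes of Flnc were higher in culture, but the size ranged from 2.24-fold to 249-fold on day 3.

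Of the 14 contractile genes, 6 passed 2-fold upward and 4 downward on day 1 against day 0, beside 13.5% and 15.3% of named genes. Tropomyosins wind along the filament and set which proteins may bind it. Tpm1 had a signal of 4.22 on day 0, 20.0 on day 1 and 46.4 on day 3, 4.74-fold higher on day 1 than on day 0 and at a log2 ratio of 3.46 on day 3. With its probes averaged, the log2 ratio of Tpm1 on day 1 was 1.72, under 4-fold. Tpm3 was 3.64-fold and 4.74-fold higher, and Tpm4 had 14.8 on day 0, 75.8 on day 1 and 85.3 on day 3, 5.13-fold and 5.78-fold higher. Tpm2, by contrast, had 1.66 on day 0, 0.516 on day 1 and 1.73 on day 3. It was 3.22-fold lower on day 1 and back at its day 0 level on day 3, with a log2 ratio of 0.06, and its second probe gave -1.47 and 0.24.

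The tropomyosin probes are shown because these genes are alike in sequence and yet differed in sign on day 1. In the first pair the capitals mark bases that differ between the genes over the 33 bases where the probes cover the same stretch of the family, of which 27 are identical (81.8%).
Tpm1, chr9:66880625-66881695 (mm9, minus strand): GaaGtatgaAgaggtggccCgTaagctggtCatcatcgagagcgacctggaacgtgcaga
Tpm2, chr4:43532150-43532300 (mm9, minus strand): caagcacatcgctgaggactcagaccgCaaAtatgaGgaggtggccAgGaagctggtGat
This Tpm1 probe, dimmer than the brightest, had signals of 1.57, 10.1 and 19.6 on day 0, day 1 and day 3, and the Tpm2 probe 1.66, 0.516 and 1.73. In the second pair, 32 of 47 bases are identical (68.1%).
Tpm3, chr3:89893733-89893942 (mm9, plus strand): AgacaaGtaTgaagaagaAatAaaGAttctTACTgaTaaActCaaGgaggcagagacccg
Tpm2, chr4:43531276-43531335 (mm9, minus strand): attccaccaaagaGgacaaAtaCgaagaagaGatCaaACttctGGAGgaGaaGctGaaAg
This Tpm3 probe had 0.223, 0.823 and 1.18 and the Tpm2 probe 1.26, 0.455 and 1.49, so in both pairs the Tpm2 signal was lowest on day 1 while that of the other gene was above its day 0 level.

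Myl9, Cnn1, Tagln and Tpm2 were lower on day 1 than on day 0 and higher on day 3 than on day 1. Myl9, a regulatory light chain of smooth muscle and non-muscle myosin, had a signal of 15.4 on day 0, 0.514 on day 1 and 2.31 on day 3. It was 29.9-fold lower on day 1 than on day 0, where only 0.17% of named genes had a lower ratio, and 4.50-fold higher on day 3 than on day 1, which left it 6.66-fold below day 0. Cnn1, the calponin of smooth muscle, had 0.720 on day 0, 0.143 on day 1 and 0.669 on day 3, which is 5.05-fold lower on day 1 and -0.11 in log2 ratio on day 3 against day 0. Myl9 and Cnn1 each rest on 1 probe printed in 1 spot. Tagln, which encodes the smooth muscle protein SM22, had 5.98 on day 0, 1.94 on day 1 and 9.47 on day 3 by its brighter probe and 0.624, 0.117 and 1.33 by the other. It was 3.08-fold and 5.34-fold lower on day 1 by these probes, and 4.88-fold higher on day 3 than on day 1 by the brighter. With Tpm2, 4 of the 41 genes were at least 2-fold lower on day 1 and then at least 2-fold higher on day 3 than on day 1. That course was taken by 214 of 18686 named genes, or 1.15%.

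Acta2, the smooth muscle actin gene, had probes that disagreed. The brightest had a signal of 6.15 on day 0, 10.9 on day 1 and 17.2 on day 3, higher on both days. Another probe, printed in 10 spots, had 6.14 ± 0.358 on day 0, 0.989 ± 0.0831 on day 1 and 5.17 ± 0.581 on day 3 (SD over spots, n = 10). Its log2 ratio was -2.64 ± 0.05 for day 1 and -0.25 ± 0.06 for day 3, both over day 0, and 2.38 ± 0.06 on day 3 relative to day 1 (SE from spots). A single-spot probe close to it on the genome had 0.399 on day 0, 0.0466 on day 1 and 0.352 on day 3, and a further single-spot probe 0.111, 0.0866 and 0.189. A further Acta2 probe, the only other, was not well above background on any array. So 2 of 4 measurable probes had the day 1 dip of Myl9, Cnn1 and Tagln at 4-fold or more, and the brightest did not.

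The brightest Acta2 probe is shown because the call for this gene turns on it. Its 60 bases span 3255 bases of the genome, so it crosses at least 1 exon junction, at chr19:34322995-34326249 (mm9, minus strand).
Acta2, brightest probe: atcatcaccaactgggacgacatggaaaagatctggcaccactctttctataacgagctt
Actin genes are near-identical over much of their coding sequence. The log2 ratios of this probe were 0.82 on day 1 and 1.48 on day 3. Those of Actg1 were 0.61 and 0.85, and those of Actg2, the enteric smooth muscle actin, 0.97 and 0.92. Actb lay lower, with 0.31 and 0.02 by its brightest probe and -0.30 and -0.44 by its 10-spot probe. Whether the brightest Acta2 probe also bound other actin transcripts was not tested.

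Markers of muscle and pericyte cells were read beside these genes. Of 10 such markers outside the list, all were well above background on each day, and none was at 0. Their summed signal was 27.3 on day 0, 21.2 on day 1 and 18.4 on day 3, of which Ren1 made up 15.1, 7.77 and 8.42. On day 1 against day 0, 3 were at least 2-fold lower and 1 at least 2-fold higher, beside 15.3% and 13.5% of named genes. Myh11, the smooth muscle myosin heavy chain, had the lowest ratio to day 0 of the 10 on both days. Its signal was 0.664 on day 0, 0.126 on day 1 and 0.147 on day 3, which is 5.26-fold and 4.51-fold lower. Kcnj8, Actg2, Cspg4 and Pdgfrb were instead 2.44-fold, 1.96-fold, 1.65-fold and 1.23-fold higher on day 1 than on day 0. On day 3, 0 of the 10 markers exceeded their day 1 signal by 2-fold or more, beside 6.96% of named genes. With 10 markers, a count of 0 cannot be told from such a share. Pdgfrb and Kcnj8 were 2.26-fold and 3.61-fold lower on day 3 than on day 1, beside 8.21% of named genes past 2-fold in that direction. Of 7 measurable fibroblast markers, 3 exceeded their day 1 signal by 2-fold or more by their brightest probes and 1 was lower by that much. Of the 3, Col1a1 and Col3a1 had other probes down to -0.21 and -0.06 in log2 ratio. Col1a2 had 1 measurable probe. The median log2 ratio of the 7 markers was 0.13. Their summed signal was 2.93, 1.47 and 9.63 on day 0, day 1 and day 3, most of it on day 3 from the collagen gene Col1a2, with 1.97, 0.547 and 7.91. Lum and Dcn, which encode collagen-binding proteoglycans, were instead 2.02-fold and 1.71-fold lower on day 3 than on day 1. The part of these cells in the course of Myl9, Cnn1, Tagln, Tpm2 and Acta2 was not tested.

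**Figure D3:**
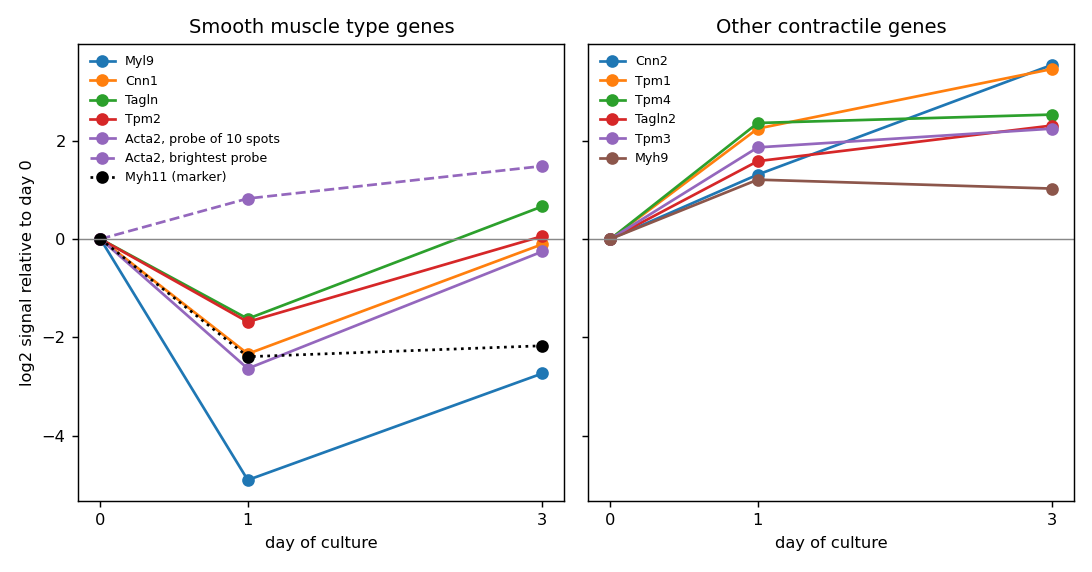
Log2 signal relative to day 0 on days 0, 1 and 3 for contractile genes, 1 array a day. On the left, Myl9, Cnn1, Tagln, Tpm2 and the 10-spot probe of Acta2 are lowest on day 1 and higher again on day 3. Myh11, with the lowest ratio of the 10 muscle and pericyte markers, stays at -2.17 on day 3. The brightest Acta2 probe is above 0. On the right, 6 selected other contractile genes (Cnn2, Tpm1, Tpm4, Tagln2, Tpm3 and Myh9) are above 0 on both days. Not drawn are Cnn3 (0.36 on day 1 and 0.22 on day 3), Myl6 (0.20 and 0.21) and Myh10 (-0.49 and 0.26).

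The remaining contractile genes are ones that are also found outside muscle. Cnn2, a calponin of non-muscle cells, had a signal of 1.11 on day 0, 2.76 on day 1 and 13.0 on day 3, 2.48-fold and 11.7-fold higher than on day 0, and 4.71-fold higher on day 3 than on day 1. Cnn3 stayed within 2-fold at 20.2, 25.9 and 23.6. Tagln2 had 11.6 on day 0, 34.8 on day 1 and 57.5 on day 3, 4.95-fold higher on day 3 than on day 0. Myh9, the heavy chain of non-muscle myosin 2A, had 22.3 on day 0, 51.4 on day 1 and 45.3 on day 3 by its brighter probe, 2.31-fold and 2.04-fold higher, while its other probe gave log2 ratios of -0.74 and -0.89. Myh10, of myosin 2B, had 1.28, 0.911 and 1.53 on day 0, day 1 and day 3, and Myl6, the essential light chain, 184, 212 and 213. Both stayed within 2-fold of day 0 by their brightest probes, though the other Myh10 probe was 2.44-fold higher on day 3.

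Of the focal adhesion genes, 8 of 10 were at least 2-fold higher on day 3 than on day 0, beside 16.5% of named genes, and the PDZ-LIM adaptor Pdlim7 led them. Its signal was 0.549 on day 0, 4.13 on day 1 and 6.30 on day 3, 7.52-fold and 11.5-fold higher than on day 0, and its 4 probes had log2 ratios from 2.27 to 3.86 on day 3. Zyx, whose product zyxin marks adhesions under tension, had 9.87 on day 0, 35.3 on day 1 and 54.3 on day 3, 3.57-fold and 5.50-fold higher. Pdlim1 had 0.658 on day 0, 1.88 on day 1 and 3.47 on day 3, 5.27-fold higher on day 3, but its dimmer probe was 2.01-fold lower. Averaged, the 2 probes gave a log2 ratio of 0.70.

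Vcl, the gene of the linker vinculin, was 2.96-fold and 3.49-fold higher than on day 0 by its brighter probe. Its other probe gave log2 ratios of 1.67 and 1.89, against 1.57 and 1.80. Tln1, whose product talin activates integrins, differed less, with 3.76 on day 0, 4.39 on day 1 and 6.34 on day 3, and all 3 of its probes stayed within 2-fold. Vasp, which elongates filaments at adhesions, was 2.10-fold and 2.86-fold higher, and the LIM and SH3 gene Lasp1 2.17-fold and 3.50-fold higher. Csrp1, a LIM gene of actin bundles, had 4.32 on day 0, 3.87 on day 1 and 14.1 on day 3: near its day 0 level on day 1, where its sign depends on the scaling, and 3.26-fold higher on day 3. Pdlim5 was 2.33-fold and 2.23-fold higher by its brightest probe, while its 5 probes ran from -0.90 to 1.15 in log2 ratio on day 3. Lima1, which encodes the filament-stabilising protein EPLIN, was the focal adhesion gene with a lower signal on both days, 17.0 on day 0, 7.88 on day 1 and 9.34 on day 3. Its other measurable probe had 2.30, 1.16 and 2.05, near its day 0 level on day 3.

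The membrane linkers did not move together. Ezrin, radixin and moesin tie filaments to membrane proteins and are close relatives. Msn, the moesin gene, had a signal of 0.461 on day 0, 2.54 on day 1 and 2.60 on day 3, 5.51-fold and 5.62-fold higher than on day 0, and its 3 probes had log2 ratios from 2.46 to 2.73 on day 1. Moesin is abundant in endothelial cells, whose 9 markers were all well above background, none at 0, and summed to 30.5 on day 0, 19.6 on day 1 and 8.24 on day 3. Their part in the Msn signal was not tested. Ezr, the ezrin gene, had 49.96 on day 0, 52.6 on day 1 and 77.1 on day 3 and stayed within 2-fold. Rdx, the radixin gene, had 4.28 on day 0, 3.24 on day 1 and 3.08 on day 3 and was slightly lower, a direction that spike-in scaling turned on day 3 (0.01 in log2 ratio).

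Vil1, the gene of the microvillus bundler villin, had a signal of 21.7 on day 0, 20.1 on day 1 and 4.33 on day 3. It lay near its day 0 level on day 1 and was 5.02-fold lower on day 3, and 4.64-fold lower on day 3 than on day 1. No other of the 41 genes was at least 2-fold lower on day 3 than on day 1, beside 8.21% of 18920 named genes. The proximal tubule markers given above were lower as well, already on day 1, and their part in the difference was not tested. With spike-in scaling the log2 ratio of Vil1 on day 3 to day 0 was -1.84, under 4-fold. The second probe had 17.1, 16.0 and 3.36 on day 0, day 1 and day 3, but the probes are not independent: they share 40 bases, which are in capitals.
Vil1, chr1:74481962-74482021 (mm9, plus strand): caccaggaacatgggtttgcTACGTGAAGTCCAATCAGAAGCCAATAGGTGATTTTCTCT
Vil1, chr1:74481982-74482041 (mm9, plus strand): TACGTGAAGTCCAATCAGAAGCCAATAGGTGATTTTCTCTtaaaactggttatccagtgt

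Between day 1 and day 3 most of the list differed little. Of the 41 genes, 32 stayed within 2-fold and 8 were at least 2-fold higher, beside 6.96% of named genes, and the median log2 ratio of day 3 to day 1 was 0.38, or 0.68 with spike-in scaling. 4 genes, Tagln, Cnn2, Cnn1 and Myl9, were at least 4-fold higher on day 3 than on day 1, beside 1.61% of named genes, and all belong to the contractile group. Vil1 was the single gene at least 4-fold lower, beside 1.31%. Cnn1 came under 4-fold with normexp and Vil1 with spike-in scaling (1.76 and -1.91 in log2 ratio). Taken by course, 20 genes were at least 2-fold higher on day 1 and then within 2-fold of that level on day 3, a course of 11.3% of named genes. Tmsb10, Tpm1 and Cnn2 were at least 2-fold higher on day 1 and again on day 3 against day 1.

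Probes of the same gene usually had the same direction. Of the 25 genes with several probes, 18 had every measurable probe on the same side of 0 on day 1 and 19 on day 3 against day 0. On day 3 the exceptions were Acta2, Actb, Flna, Myh9, Pdlim1 and Pdlim5, and on day 1 also Myh10. The 16 genes with 1 probe, Myl9 and Cnn1 among them, allow no such check.

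**Figure D4:**
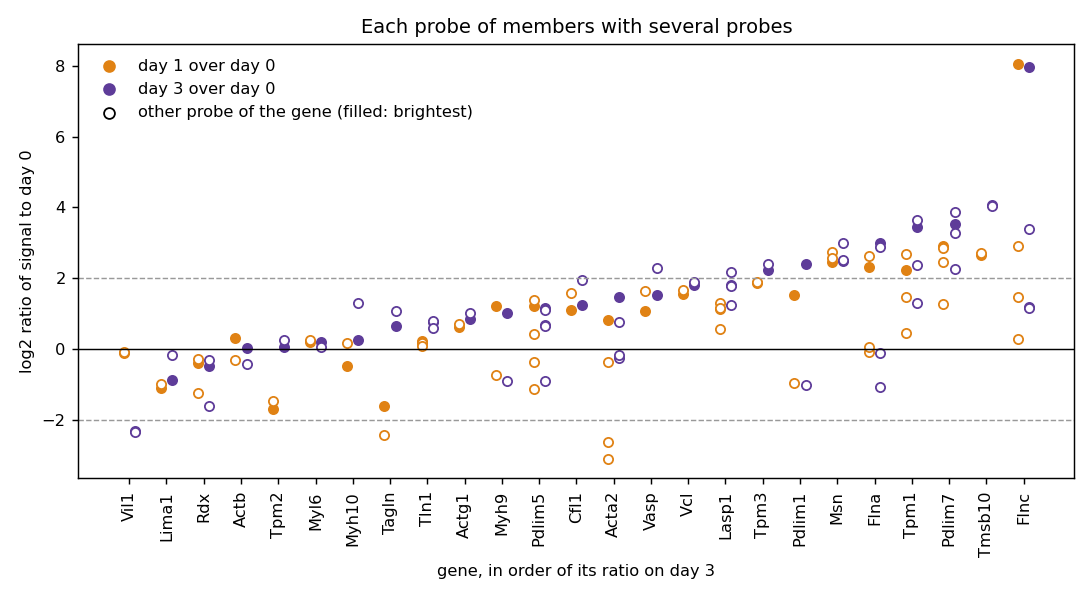
Log2 ratio to day 0 of each probe, for the 25 genes with several probes well above background on at least 1 array, with day 1 left and day 3 right of each tick and the brightest probe filled. Probes of Flnc, Acta2 and Flna lie far apart, and those of Msn, Tmsb10 and Vil1 close together.

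Promoters were read for the CArG box, the site of serum response factor, which drives many actin and smooth muscle genes. RefSeq gave 250 bases before to 50 after a start site (GRCm38.p6) for 39 of the 41 genes. On either strand, which are equivalent for this motif, 7 of the 39 genes had an exact box, or 17.9%, as had 488 of 27025 genes of the table, or 1.81%. The list was put together from this biology and includes known targets of the factor, so nothing is read from the share. The stretches around the boxes follow, with the box in capitals, to be read beside the values above.
Actg1, chr11:120348551-120348610 (minus strand): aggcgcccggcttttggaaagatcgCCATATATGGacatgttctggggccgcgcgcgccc
Cnn2, chr10:79988519-79988578 (plus strand): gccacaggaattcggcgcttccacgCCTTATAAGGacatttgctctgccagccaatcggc
Lima1, chr15:99820162-99820221 (minus strand): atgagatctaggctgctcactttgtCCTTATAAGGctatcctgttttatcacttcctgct
Myl6, chr10:128493025-128493084 (minus strand): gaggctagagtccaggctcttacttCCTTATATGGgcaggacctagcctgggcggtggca
Myl9, chr2:156775278-156775337 (plus strand): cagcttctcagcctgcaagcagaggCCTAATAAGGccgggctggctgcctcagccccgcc
Vcl, chr14:20929148-20929205 (plus strand): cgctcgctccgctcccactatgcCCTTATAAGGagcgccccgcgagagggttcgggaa
Vil1, chr1:74409286-74409345 (plus strand): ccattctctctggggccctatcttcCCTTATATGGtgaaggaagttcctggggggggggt
Genes with a box did not share a course. By their brightest probes Cnn2 and Vcl were 11.7-fold and 3.49-fold higher on day 3 than on day 0. Actg1, Myl6 and Lima1 were within 2-fold, Lima1 being 1.82-fold lower. Myl9 and Vil1 were 6.66-fold and 5.02-fold lower. A match is a run of letters and not a measured site. Srf itself, the gene of the factor, had a signal of 3.90 on day 0, 1.80 on day 1 and 1.56 on day 3, 2.16-fold and 2.50-fold lower than on day 0, and its coactivator gene Mkl1 was 2.34-fold and 2.53-fold higher by its brighter probe, with the other probe at -0.48 and -0.65 in log2 ratio.

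Actin genes outside the list gave the setting. Of 21 genes of filament nucleation, 3 were at least 4-fold higher on day 3 than on day 0 and 0 lower (median log2 ratio 0.81), beside 5.33% and 7.94% of named genes. Counts in the lists that follow are to be read against the same shares. The Arp2/3 subunit Arpc1b had a signal of 12.6 on day 0, 66.6 on day 1 and 86.9 on day 3, and the formin Diap3 0.0184 on day 0, 0.160 on day 1 and 1.93 on day 3, 105-fold higher on day 3. Of 18 genes for monomers, severing and capping, 2 passed 4-fold upward and 0 downward (median 0.99), the severing protein scinderin, Scin, being 5.91-fold and the coronin Coro1c 4.35-fold higher. Of 20 other cross-linkers and contractile genes, 2 were at least 4-fold higher and 1 lower (median 0.43). Smtn and Marcks were 5.22-fold and 4.98-fold higher on day 3. Mylk, the kinase of the myosin light chain, had 5.10 on day 0, 1.105 on day 1 and 1.74 on day 3, and Synpo, which podocytes use, 4.39, 1.02 and 0.998 on those days, each by its brightest probe, with other probes down to little change (-0.68 and -0.12 in log2 ratio on day 3). The 6 podocyte markers, all well above background and none at 0, summed to 10.4, 2.22 and 4.39 on day 0, day 1 and day 3, and their part was not tested.

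Of 25 other focal adhesion genes, 2 passed 4-fold upward and 2 downward on day 3 against day 0 (median 0.34), counts near the 5.33% and 7.94% of named genes. Tns1, the tensin that links integrins to actin, had 44.6 on day 0, 9.09 on day 1 and 8.37 on day 3, 5.33-fold lower on day 3, and all its probes were lower. Csrp2, a relative of Csrp1, had 41.9 on day 0, 9.08 on day 1 and 13.0 on day 3. By their brightest probes Parva and Fhl2 were 6.59-fold and 5.11-fold higher on day 3, while other probes gave -0.30 and 0.37 in log2 ratio.

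Genes of actin proteins and scaffolds of the brush border were mostly lower. Of 15 genes outside the list, 5 were at least 4-fold lower on day 3 than on day 0 and 0 at least 4-fold higher (median -1.24), beside 7.94% of named genes lower. The smallest of the 5 differences was 4.06-fold, close to the threshold. At 2-fold, 9 were lower and 1 was higher, beside 21.7% and 16.5% of named genes. The higher was Cobl, an actin nucleator, with 1.90 on day 0, 6.40 on day 1 and 5.57 on day 3. On day 1, 4 were at least 4-fold lower already (median -1.33), beside 5.13% of named genes. Pdzk1, a scaffold of apical transporters, had a signal of 75.1 on day 0, 5.47 on day 1 and 3.92 on day 3, 13.7-fold and 19.2-fold lower. Cdhr5, a cadherin of microvillus tips, had 4.77 on day 0, 1.40 on day 1 and 0.607 on day 3, although its other probe gave -0.47 in log2 ratio on day 3. Pls1, a bundler that works beside villin, had 6.50 on day 0, 1.57 on day 1 and 2.76 on day 3, so it was 4.15-fold lower on day 1, when Vil1 was near its day 0 level. Slc9a3r1, the scaffold that ezrin binds, stayed near its day 0 level on day 3, with 6.43, 3.82 and 6.11 on day 0, day 1 and day 3.

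**Figure D5:**
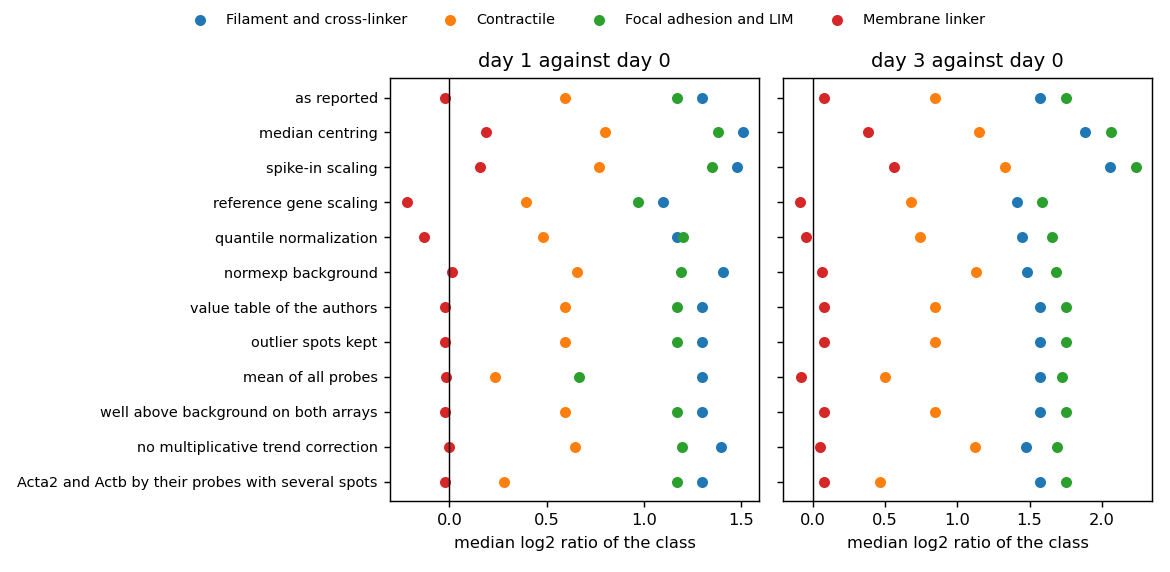
Median log2 ratio of each role group, for day 1 and day 3 against day 0, under the reported processing and 11 alternatives. Filament and focal adhesion medians stay above 0 in all of them, contractile medians stay above 0 but move toward it with averaged probes or another Acta2 probe, and membrane linker medians lie on both sides of 0.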

How the data were processed

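RNA of 3 mPTEC samples was labelled with Cy3 and hybridised to 1 Agilent mouse array each, per the labels' protocols, on 1 slide scanned on the same day. The authors deposited array files that give a processed intensity for each spot, background subtracted and corrected for spatial trends by Feature Extraction, version 10.5.1.1 per the file headers and 9.1 per the submitters' processing notes. On the day 3 array the processed intensity equalled the background-subtracted intensity in all 27616 spots above 100 units, so the multiplicative trend correction acted on day 0 and day 1 alone. Flags of other kind, 0 or 1 per spot, mark outliers, saturation and spots well above background, per the file headers. The authors' deposited value table is a ratio, each spot's processed intensity over that array's 75th percentile. On each array its 43379 values matched that ratio to 0.001.

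Here the log2 intensity minus the 75th percentile of non-control spots was averaged over spots of a probe, without 94, 102 and 85 outlier spots on day 0, day 1 and day 3. No spot was saturated. A gene is a name in the array files found in RefSeq as symbol or unambiguous synonym, taken by its probe with the highest mean. A comparison holds the genes that either array measured well above background, and signals below background were raised to the lowest signal well above it (1.14%, 1.06% and 0.669% of that percentile). Counts start at a 4-fold or a 2-fold difference. The number of arrays limits the precision. Members, their role groups and the other lists were chosen with earlier results of these data known. All 41 members could be named, as could the genes furthest from 0 among those past 4-fold in another list. Srf, Mkl1, Actg2, Slc9a3r1, Rock1, Rnd3, Rhob and the markers were named after their values were seen. Alternatives were other scalings (median, spike-in probes, reference genes, quantile), normexp with offset 50 (limma 3.58.1), the value table, outlier spots kept, averaged probes, and genes above background on both arrays. The signal without trend correction, and Acta2 and Actb by their 10-spot probes, were chosen after seeing the data.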

Additional observations from a re-analysis of the deposited data

How the results depend on the processing

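Of 187 counts and medians recomputed under the alternatives, 176 kept their direction and moved by no more than the median SD between probes of a gene (counts, by no more than 1.5 times). Among single genes 1268 of 1353 values moved by no more than that SD, and no gene past 4-fold changed direction. Both totals include alternatives that could move few values, or none by much. All members were well above background on every array, so requiring this on both arrays changed none of their values. The authors' value table holds the same ratio to within 0.001. Taking Acta2 and Actb by other probes left the remaining members as they were. Agreement under these alternatives was largely fixed in advance. Under some alternative 5 genes changed sign on day 1 and 5 on day 3 against day 0, and 12 on day 3 against day 1. The membrane linker median changed sign. On day 1 against day 0 it was 0.19 with median centring, 0.16 with spike-in scaling and 0.0123 with normexp. On day 3 against day 0 it was -0.0907 with reference gene scaling, -0.0480 with quantile normalization and -0.0836 with averaged probes. Averaged probes also moved the day 1 medians of contractile and focal adhesion genes to 0.23 and 0.67. With spike-in scaling, genes at least 4-fold lower numbered 1 on day 3 against day 0 and 0 on day 3 against day 1, and the median of day 3 against day 1 was 0.68. Beyond what scaling itself shifts, the cause was not tested. Spike-in scaling moved the median of all named genes by 0.18 on day 1 and 0.48 on day 3 against day 0, and reference gene scaling by -0.20 and -0.17. The share of all 4-fold calls that were higher was 39.8% on day 1 and 40.2% on day 3 against day 0, 50.1% and 64.6% with spike-in scaling, 51.8% and 56.0% with median centring. On day 3 against day 1 it was 55.2%, and 74.3% with spike-in scaling. No paired analysis was possible because each day has 1 sample and no test was made.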

Other observations

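Rnd1, an atypical small GTPase that opposes stress fibres, had a signal of 1.36 on day 0, 13.0 on day 1 and 46.0 on day 3, 9.52-fold and 33.8-fold higher than on day 0. Rock2, a kinase downstream of RhoA, was 4.69-fold higher on day 3, while Rock1 had 6.13, 6.47 and 5.13 on day 0, day 1 and day 3. Rnd3 ran the other way from Rnd1, with 6.90 on day 0, 2.31 on day 1 and 2.95 on day 3, and all 3 of its probes were lower. Rhob had 1.78 on day 0, 0.666 on day 1 and 1.68 on day 3, 2.67-fold lower on day 1 and 2.53-fold higher on day 3 than on day 1.

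Markers of other cells differed between days too. Of 6 podocyte markers, 4 were at least 4-fold lower on day 1 than on day 0, beside 5.13% of named genes. Endothelial markers had a median log2 ratio of -1.99 on day 3 against day 0, and all 9 were lower. Of 9 leukocyte markers, Cd68 was 12.2-fold higher on day 1, and the median was -0.35.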
